A study of Mus musculus with 22 samples.

Results

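The mouse genes for the proteins of the cytosolic ribosome were followed in preimplantation embryos with and without Nanog and in stem cell lines of the 3 blastocyst lineages. The rows were taken by symbol from a table of counts per gene: symbols that begin with Rpl or Rps and a digit, with Rpsa, Rplp0, Rplp1 and Rplp2, and without pseudogene rows (-ps in the symbol) and the Rps6k kinases. The rule kept 86 of 21881 symbols, 52 named for the large subunit and 34 for the small subunit. It left out 2 pseudogene rows and 10 kinases. It admits 1 row that is no ribosomal protein, Rps19bp1, a nucleolar protein that binds Rps19, and 8 paralog rows that are described apart below. The Rps4y2 row is 1 of these 8. RefSeq lists it as Rps4l, a transcribed pseudogene on chromosome 6.

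The embryo samples were 8 single embryos of embryonic day 3.5, the blastocyst stage. There were 2 wild-type embryos (1 female, 1 male), 2 Nanog heterozygous embryos (1 female, 1 male) and 4 Nanog knockout embryos, called null here (females F1 and F2, males M1 and M2). How the Nanog allele was made and the strain are not given in the labels. Nanog is a homeodomain factor of the pluripotent epiblast. The lines, all labelled Nanog wild type, were 2 embryonic stem (ES) lines in serum-free medium (female F1, male M2), 3 trophoblast stem (TS) lines (females F1 and F2, male M3) and 2 extraembryonic endoderm (XEN) lines (males M1 and M2). The titles of the TS and XEN samples name no medium, so lineage and medium cannot be told apart in the ES comparisons. Each line was sequenced from 2 passages, which the labels call technical replicates. The 2 passages of a line were summed, so that a line counted once. Embryo RNA was amplified as cDNA and line RNA was not, so embryos and lines were not compared with each other.

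The ribosome's proteins are made in near equal numbers and assembled on ribosomal RNA in the nucleolus. Their mRNAs are short, abundant and start in a stretch of pyrimidines, the terminal oligopyrimidine (TOP) tract, through which mTORC1 and LARP1 control their translation. A few mammalian members have a second gene that is used in germ cells, muscle or early development, and 4 of the rows here lie on the X chromosome.

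Windows of 30 bases around the start of the gene, where the TOP tract lies, are shown for members whose levels are described below. Each runs from 10 bases before the RefSeq start to 20 bases into the transcript (GRCm38.p6, transcript strand), with its longest run of C or T in capitals.
Rpl15, chr14:18270967-18270996, minus strand: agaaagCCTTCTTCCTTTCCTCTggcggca
Rps18, chr17:33955646-33955675, minus strand: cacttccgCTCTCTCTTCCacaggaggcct
Rplp2, chr7:141447641-141447670, plus strand: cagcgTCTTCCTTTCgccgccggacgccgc
Rps24, chr14:24490668-24490697, plus strand: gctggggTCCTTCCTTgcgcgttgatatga
Rpl22l1, chr3:28805498-28805527, plus strand: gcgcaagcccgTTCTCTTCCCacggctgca
Rpl10l, chr12:66284382-66284411, minus strand: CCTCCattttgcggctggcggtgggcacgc
Rpl3l, chr17:24727816-24727845, plus strand: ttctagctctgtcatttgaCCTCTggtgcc
The first 5 hold pyrimidine runs of 17, 11, 10, 9 and 10 bases. The longest run in the window was 5 bases for both Rpl10l and Rpl3l. Some core members had shorter ones, such as Rpl41 (3), Rpl5 (3) and Rps4x (4), so a short run does not set these paralogs apart. Of the 65 members with a start in the RefSeq promoter table, 31 (47.7%) had a run of 8 or more C or T on the transcript strand between 20 bases before and 30 bases after the start. The same held for 5093 of all 27025 genes in the table (18.8%). A C followed by 4 pyrimidines exactly at the start was found in 12 members (18.5%) and in 673 of all genes (2.5%). The annotated start is 1 position per gene, and the other strand was not searched.

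The coding sequences of 2 X-linked members and of their autosomal paralogs are shown because Rpl10l and Rpl39l had the largest SDs of log2 level over the lines (2.98 and 1.84), and because the differing bases are what tells reads of a pair apart. They come from GENCODE M21 (GRCm38), with the bases that differ within a pair in capitals. The first pair is the whole coding sequence of 156 bases, and the second the first 150 of 645 bases.
Rpl39: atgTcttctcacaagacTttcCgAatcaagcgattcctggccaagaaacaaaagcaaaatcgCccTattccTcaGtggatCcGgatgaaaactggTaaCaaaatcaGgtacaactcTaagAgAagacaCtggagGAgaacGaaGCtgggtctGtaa
Rpl39l: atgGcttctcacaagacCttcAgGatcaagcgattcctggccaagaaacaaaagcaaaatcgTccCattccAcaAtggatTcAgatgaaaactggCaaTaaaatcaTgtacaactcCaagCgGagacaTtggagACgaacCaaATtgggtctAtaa
Rpl10: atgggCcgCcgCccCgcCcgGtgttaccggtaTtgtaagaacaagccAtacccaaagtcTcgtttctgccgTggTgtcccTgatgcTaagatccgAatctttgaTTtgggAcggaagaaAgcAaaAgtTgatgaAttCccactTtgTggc
Rpl10l: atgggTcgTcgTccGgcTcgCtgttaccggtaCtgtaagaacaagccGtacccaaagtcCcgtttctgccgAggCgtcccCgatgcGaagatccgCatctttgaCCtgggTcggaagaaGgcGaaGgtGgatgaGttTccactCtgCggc
Rpl39 and Rpl39l differed at 23 of 156 positions and were 85.3% identical, with a longest identical stretch of 38 bases. Rpl10 and Rpl10l differed at 98 of 645 positions and were 84.8% identical, with a longest identical stretch of 23 bases. No stretch of 50 bases was shared within either pair, so reads of that length from the coding sequences of a pair differ by at least 1 base.

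Library totals ran from 14768624 to 32231620 counts in the embryos and from 17423134 to 37642361 counts per line. Levels are given as CPM, counts scaled to a library total of 1000000. Nanog itself was 0.3 to 0.6 CPM in the 4 null embryos and 53.6 to 137 CPM in the 4 embryos with Nanog. Lineage markers went with the labels of the lines: the 6 epiblast markers summed to 5683 and 5733 CPM in the ES lines, the 5 trophectoderm markers to 2556 to 6925 CPM in the TS lines, and the 6 primitive endoderm markers to 12121 and 14437 CPM in the XEN lines. Pou5f1 was under 7 CPM in the TS and XEN lines, and Nanog and Tdgf1 were at most 2.33 CPM there. Other epiblast markers were present in TS lines: Esrrb at 258 to 440, Sox2 at 121 to 269 and Zfp42 at 50.6 to 82.9 CPM. The epiblast markers summed to 436 to 794 CPM in TS and 8.58 and 10.7 CPM in XEN lines. The trophectoderm markers summed to 69.2 and 105 CPM in ES and 929 and 1062 CPM in XEN lines. The primitive endoderm markers summed to 169 and 177 CPM in ES and 39.0 to 41.7 CPM in TS lines. In the embryos the primitive endoderm gene Sox7 had 1 count in null F2 and 0 in the other 7 libraries. The 8 fibroblast markers summed to 9.7 to 15.9 CPM in ES, 27.9 to 120 CPM in TS and 10.1 to 10.9 CPM in XEN lines. In the embryos all 8 fibroblast markers had counts in null F2 and null M2, where they summed to 5.98 and 6.35 CPM and the haemoglobin gene Hba-a1 was at 5.71 and 4.10 CPM. In each of the other 6 embryos 6 to 8 of the fibroblast markers were at 0 and the sum was at most 3.52 CPM. The 6 blood markers summed to 438 and 672 CPM in ES and 192 to 806 CPM in TS lines, most of it Laptm5 (166 to 763 CPM), with Ptprc at 0.0 CPM when rounded in all samples. Of the embryo libraries, null F1 and null M2 stood apart: 570 and 809 genes that averaged 5 CPM or more elsewhere among the embryos had 3 counts or fewer there, against 40 to 300 such genes in the other 6. The members' medians and most of the named differences between embryo groups are therefore also given without null F1 and M2 and, as a choice made after seeing the data, without null F2 and M2. Each of these leaves 2 null embryos.

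The 86 rows took 6.66% and 6.43% of all counts in the wild-type female and male, 5.92% and 6.12% in the heterozygous female and male, and 5.72%, 6.33%, 6.80% and 8.62% in null F1, F2, M1 and M2. The null embryos held both the lowest and the highest share, and their range covered that of all embryos with Nanog. In the lines the share was 7.02% and 7.63% in ES F1 and M2, 6.57%, 5.71% and 6.12% in TS F1, F2 and M3, and 4.64% and 5.37% in XEN M1 and M2. The lineages did not overlap when the passages of a line were summed. Single passages did: 1 passage of TS F1 (7.22%) lay above both of ES F1 (6.82% and 7.20%). The 2 passages of XEN M2 were at 4.67% and 6.46%. The higher of them lay above 1 passage of TS F1 (5.93%) and both of TS F2 (6.01% and 5.44%) and TS M3 (5.72% and 6.45%). The mean share was 7.32% ± 0.428 (SD, n = 2) in ES, 6.13% ± 0.432 (SD, n = 3) in TS and 5.01% ± 0.516 (SD, n = 2) in XEN lines, given as a description without a test. In bulk RNA, fewer cells of a type and less RNA per cell cannot be told apart.

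**Figure D1:**
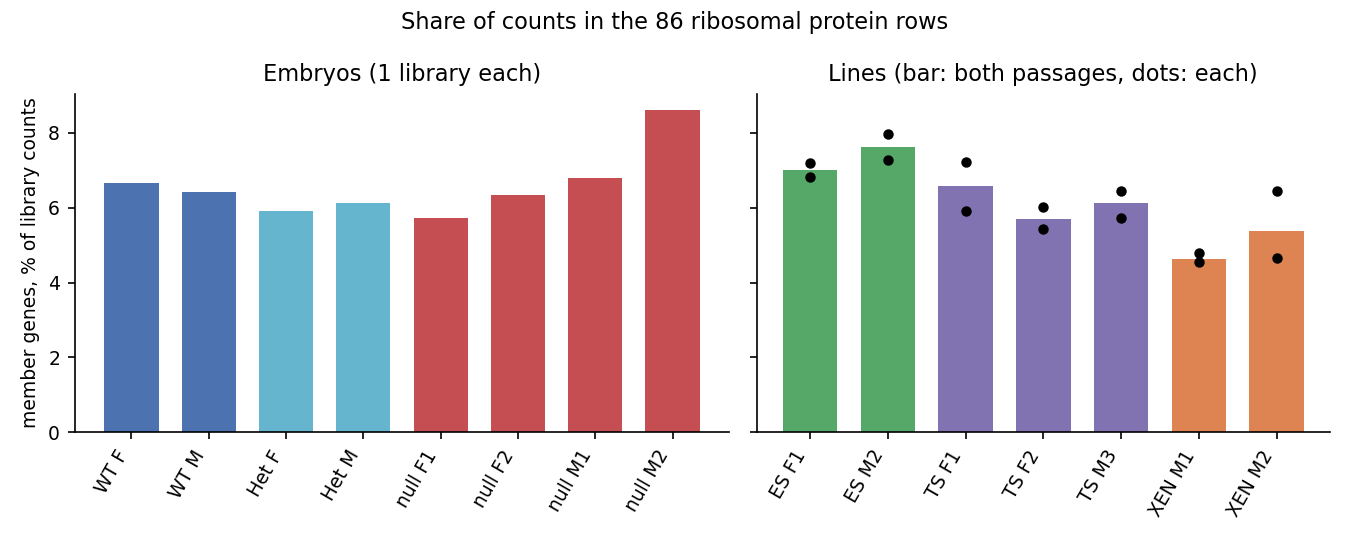
Share of library counts (%) in the 86 ribosomal protein rows, as bars for each of 8 embryos (left) and 7 lines (right), with each line's 2 passages as dots. Null M2 is the highest embryo at 8.62% and null F1 the lowest at 5.72%, and the lines run from 7.63% (ES M2) to 4.64% (XEN M1).

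Per kilobase of coding sequence, Rpl41, the shortest ribosomal protein, was the highest member, with a mean of 15689 CPM per kb in the embryos and 7264 CPM per kb in the lines. In the embryos Rps29 (6015 CPM per kb) and Rps18 (3728 CPM per kb), both of the small subunit, followed. In the lines the next were Rplp1 (3803 CPM per kb), an acidic protein of the ribosomal stalk, and Rpl39 (3376 CPM per kb), which lines the exit tunnel. The lowest member in both was Rpl3l, the paralog of Rpl3 known from muscle, at 0.0863 and 0.438 CPM per kb. Next lowest were Rpl7a (18.2) and Rpl21 (22.6) in embryos and Rpl29 (6.23) and Rpl21 (9.94) in lines, all in CPM per kb. The coding part of the transcripts was 141 of 509 bases for Rpl41, 156 of 612 for Rpl39 and 345 of 499 for Rplp1. A ranking per kb of whole transcript was not made and could differ.

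Several of the low core rows share sequence with many other annotated genes. Ribosomal protein genes have many processed pseudogenes, and a median of 56.5% of a member's 50-base stretches also occurred in a transcript of another GENCODE gene. For 52 of the 86 members this share was over 50%, and for 4 it was 0. Rpl7a shared stretches with 123 other genes, Rpl29 with 84, Rpl21 with 82, Rps2 with 71 and Rpl17 with 51. Their means in the lines were 17.4, 6.23, 9.94, 188 and 76.2 CPM per kb. Other rows shared as widely and were high: Rps16 (89 sharing genes) was at 2104, Rpl23 (68) at 2434 and Rps20 (50) at 2681 CPM per kb. Over 77 members without the paralogs and Rps19bp1, the rank correlation of the number of sharing genes with the level per kb was -0.40 in embryos and -0.24 in lines, both from the same annotation. How reads with several matches were counted is not given in the sources used here, and its part in these levels was not tested. The levels of these rows, and differences in them, are therefore uncertain.

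The largest differences between the lineages were in paralogs. Rpl10l, an autosomal copy of X-linked Rpl10 that is known to replace it in male germ cells, was at 97.5 and 72.2 CPM in ES F1 and M2. It was at 0.61, 0.27 and 0.18 CPM in TS F1, F2 and M3, and at 0.05 and 0.16 CPM in XEN M1 and M2. Both ES lines lay far above all 5 other lines. The summed counts were 3063 in ES against 30 in TS and 7 in XEN lines. The ratio of CPM from these sums was 217 for ES against TS (95% exact interval 152 to 322, for counting error only) and 841 for ES against XEN (408 to 2093). The difference in edgeR's quasi-likelihood test was 7.77 ± 0.53 (log2, SE) against TS with adjusted p = 0.00013, and 9.31 ± 0.70 against XEN with adjusted p = 0.000119. In the embryos Rpl10l was at 74.3 and 77.4 CPM in wild type, 116 and 96.6 CPM in heterozygotes and 52.4, 87.4, 80.6 and 137 CPM in null F1, F2, M1 and M2. The null embryos covered the range of the others, with null F1 the lowest and null M2 the highest.

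Rpl39l, an autosomal copy of X-linked Rpl39 that is known from sperm-forming cells and some stem cells, was at 11.5 and 16.9 CPM in ES F1 and M2. It was at 0.18, 0.22 and 0.14 CPM in the TS lines and at 0.03 and 0.00 CPM in the XEN lines. Its 520 counts in ES stood against 14 in TS and 1 in XEN lines, a CPM ratio of 78.9 (95% exact interval 46.6 to 145) and of 999 (179 to 39544). The test gave 6.19 ± 0.56 (log2, SE) against TS, adjusted p = 0.000381. Against XEN the adjusted p was 0.000225. Its call between TS and XEN, adjusted p = 0.0281, rested on 14 counts and 1 count, a ratio of 12.7 (1.93 to 535), in edgeR's test. It was lost with DESeq2 (adjusted p = 0.062), with sex as a term (0.0633) and without ES F1 (0.0529), ES M2 (0.0595), TS F1 (0.0578), TS F2 (0.0638) or XEN M2 (0.0916). In the embryos Rpl39l was at 107 and 95.9 CPM in wild type, 125 and 160 CPM in heterozygotes and 119, 220, 136 and 258 CPM in null F1, F2, M1 and M2. All 4 null embryos were above both wild-type embryos, and they overlapped the heterozygotes. Null F2 and M2 were the 2 highest embryos.

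Rpl3l was near 0 in most samples. It had 24 and 42 counts in ES F1 and M2 (1.38 and 2.22 CPM), 3 counts over the 3 TS lines and 2 over the 2 XEN lines. The CPM ratio of ES to TS was 46.8 (95% exact interval 15.3 to 233) and of ES to XEN 63.4 (16.9 to 535), with adjusted p = 0.00458 and 0.00626 in edgeR's quasi-likelihood test. In the embryos it had 0 to 10 counts and did not pass the filter on low counts.

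Rps4y2, the row of the transcribed pseudogene whose parent Rps4x is X-linked, was at 465 and 504 CPM in ES F1 and M2. It was at 134, 197 and 290 CPM in TS F1, F2 and M3 and at 11.8 and 107 CPM in XEN M1 and M2. The order of the lineages was ES, TS, XEN with no overlap, and the 2 XEN lines were far apart. The difference between ES and XEN was 2.68 ± 0.89 (log2, SE), adjusted p = 0.0423, and was lost without ES F1 (0.111), ES M2 (0.116), TS F1 (0.0513) or TS F2 (0.0611), with no filter (0.0858) and with sex as a term (0.0546). Between ES and TS it was 1.14 ± 0.75, adjusted p = 0.256. In the embryos Rps4y2 ran from 547 to 1020 CPM. Its sequence over the length compared with the Rps4x coding sequence was 79.8% identical.

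Rpl22l1, the paralog of Rpl22, was 1 of 2 members called lower in ES lines, and the only 1 called against both TS and XEN. It was at 59.3 and 78.9 CPM in ES, 109, 128 and 126 CPM in TS and 125 and 98.6 CPM in XEN lines. With passages summed, ES did not overlap the others. Single passages of ES and XEN lines did overlap. The 2 passages of ES M2 were at 56.3 and 102 CPM, and those of XEN M2 at 64.2 and 152 CPM. The difference was -0.88 ± 0.20 against TS (adjusted p = 0.0129) and -1.03 ± 0.22 against XEN (adjusted p = 0.00763). Both calls were lost without ES F1 (0.13 and 0.071). Rpl22 itself, which binds RNA and is known to repress its paralog, was at 592 and 590 CPM in ES, 433, 433 and 372 CPM in TS and 255 and 345 CPM in XEN lines. It passed the test against XEN (0.64 ± 0.19, adjusted p = 0.0296) and not against TS (0.46 ± 0.17, adjusted p = 0.0697). The call against XEN was lost without ES F1 (0.146), ES M2 (0.121) or XEN M1 (0.138) and with sex as a term (0.0707).

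Rpl7l1, which takes part in making the large subunit rather than in the finished ribosome, was at 256 CPM in both ES lines, 147 to 157 CPM in TS and 138 and 140 CPM in XEN lines. It was higher in ES by 0.67 ± 0.15 against TS (adjusted p = 0.0108) and by 0.54 ± 0.17 against XEN (adjusted p = 0.0315). Neither call held without ES F1 (0.0991 and 0.165) or ES M2 (0.0731 and 0.134). The call against XEN was also lost without XEN M1 (0.104) or XEN M2 (0.0944) and with no filter (0.0544). Its parent Rpl7 differed by 0.16 ± 0.17 and 0.08 ± 0.19, adjusted p = 0.499 and 0.755. Rpl36al and Rps27l, the remaining paralogs, did not pass in any line comparison: Rpl36al was at 216 to 258 CPM in the ES and TS lines, and Rps27l at 134 to 196 CPM.

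**Figure D2:**
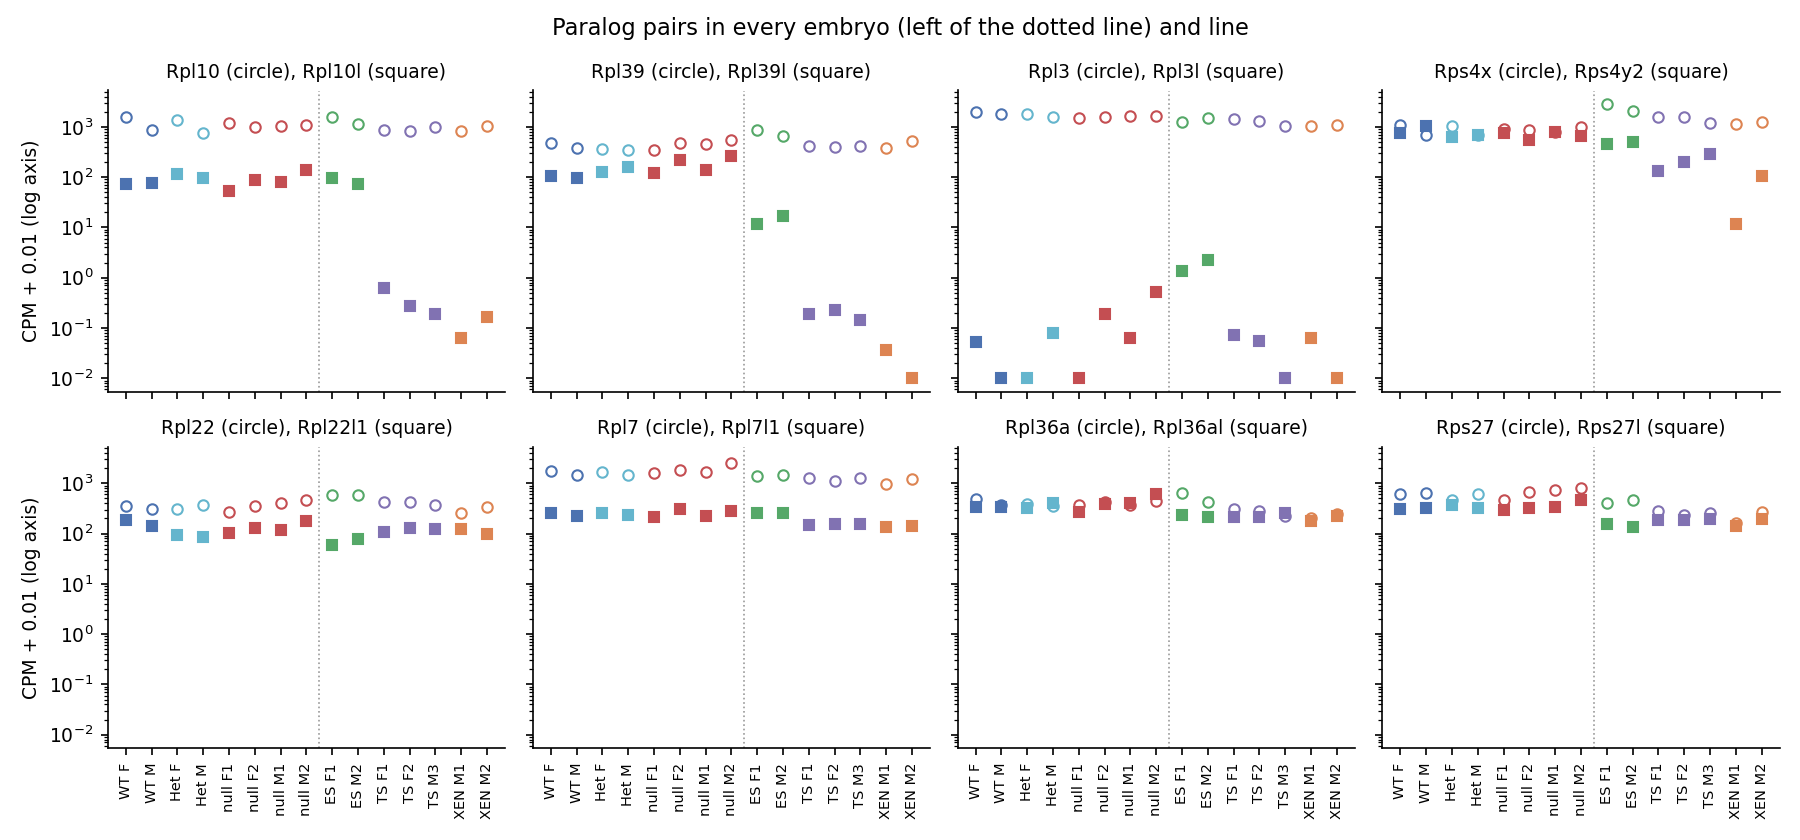
Levels of 8 paralog pairs (CPM + 0.01, log axis), circles for the named parent and squares for the paralog, in each embryo (left of the dotted line) and line. Rpl10l, Rpl39l and Rpl3l drop from ES to TS and XEN lines while the circles of their parents stay within a narrow band, and Rpl10l and Rpl39l are present in all 8 embryos.

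Between ES and TS lines, all 86 members were tested and 16 were higher and 1 lower in ES at an adjusted p under 0.05. Of all 14687 genes tested, 20% were called higher and 21.3% lower. The members' median difference was 0.21 (log2), against -0.02 for all genes. Differences of core members were small: 82 of the 86 members were within 2-fold, against 57.5% of all genes. Among the 594 other genes with a mean log2 CPM of 8 or more, 72.9% were within 2-fold and the median was -0.17. Leaving out the 8 paralogs and Rps19bp1, 77 core members remained. Of 31 core small-subunit members 8 were called higher and of 46 core large-subunit members 4, with medians of 0.28 and 0.14. The difference between the subunits was not tested.

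The largest called changes among core members were in Rpl36a and Rps29. Rpl36a, an X-linked large-subunit protein, was at 633 and 425 CPM in ES F1 and M2 and at 311, 283 and 220 CPM in TS F1, F2 and M3, higher by 0.91 ± 0.23 (adjusted p = 0.0169). Rps29, a zinc-finger protein of the small subunit, was at 751 and 823 CPM in ES and 402, 401 and 436 CPM in TS lines, higher by 0.86 ± 0.16 (adjusted p = 0.00579). For both the groups did not overlap. The Rpl36a call was lost without ES F1 (0.177) and the Rps29 call without ES F1 (0.0501) or ES M2 (0.0564). The other called core members, named here after their values were seen, were Rps23, Rps18, Rpl39, Rps4x, Rps28, Rpl30, Rplp2, Rps12, Rps7 and Rps20, with differences of 0.50 to 0.81. The number called fell to 11 without TS F1 and to 11 without TS F2. The share of all genes called fell too, from 41.3% to 35.9% and 33.7%. Without ES F1 or ES M2, fewer members and a smaller share of all genes were called. The members' median was 0.23 without ES F1 and 0.14 without ES M2. With 1 ES line left, that line is assumed to vary like the others. Rpl10l, Rpl39l and Rpl3l were the members that stayed called under all 14 alternatives.

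Between ES and XEN lines, 19 members were higher and 2 lower in ES, against 23.4% and 21.8% of all genes. The median was 0.22, against 0.05 for all genes, and 79 of 86 members were within 2-fold. Rps2, a small-subunit protein at the mRNA entry site, was at 241 and 249 CPM in ES and 113 and 73.6 CPM in XEN lines, higher by 1.06 ± 0.23 (adjusted p = 0.008). It shares 79.0% of its 50-base stretches with other genes. Rpl15, a core large-subunit protein, was at 699 and 772 CPM in ES and 1125 and 1011 CPM in XEN lines, a difference of -0.88 ± 0.17 (adjusted p = 0.00577). That call was lost without ES F1 (0.0596). Rps2 and Rps23 were the core members that stayed called under all 14 alternatives. Rps23, a protein of the decoding centre named here after its values were seen, was at 1214 and 1378 CPM in ES and 555 and 558 CPM in XEN lines (0.88 ± 0.16, adjusted p = 0.00383). Fewer members and a smaller share of all genes were called without ES F1, ES M2 or XEN M1, each of which leaves 1 line in a group. The members' median was then 0.29, 0.15 and 0.075.

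The scaling bears on comparisons with XEN. XEN lines had trimmed-mean (TMM) scaling factors of 0.865 and 0.859, and the other lines 0.979 to 1.11. With library totals alone, the median of all genes moved from 0.05 to 0.39 for ES against XEN and from 0.02 to 0.30 for TS against XEN. The members' medians moved with it, to 0.56 and 0.30. On that scale 44 members were called higher and 2 lower in ES than in XEN lines, where 31.1% of all genes were called higher and 15.6% lower. The lower share of counts in XEN lines given above is on the scale of library totals.

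Between TS and XEN lines, 1 member was higher and 2 were lower in TS, against 20.3% and 16.4% of all genes. The members' median of 0.03 was beside 0.02 for all genes. Rps24, a small-subunit protein, was at 994, 831 and 897 CPM in TS and 1323 and 1177 CPM in XEN lines (-0.73 ± 0.16, adjusted p = 0.00966). Rpl15 was at 915, 781 and 862 CPM in TS lines (-0.60 ± 0.16, adjusted p = 0.0218). With passages summed, the groups did not overlap for either. Single passages did. For Rpl15 the 2 passages of XEN M2 were at 784 and 1361 CPM, and the TS passages at 762 to 1040 CPM. For Rps24 those of XEN M2 were at 942 and 1540 CPM, and the TS passages at 799 to 1194 CPM. The Rps24 call was lost without XEN M1 (0.0533), and the Rpl15 call without ES F1 (0.057), ES M2 (0.0518), TS F2 (0.0745) or XEN M1 (0.101), with sex as a term (0.0973) and with library totals alone (0.12). The third was Rpl39l, described above. With library totals alone the split was 15 higher and 1 lower, where 26.1% of all genes were called higher and 10.6% lower.

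**Figure D3:**
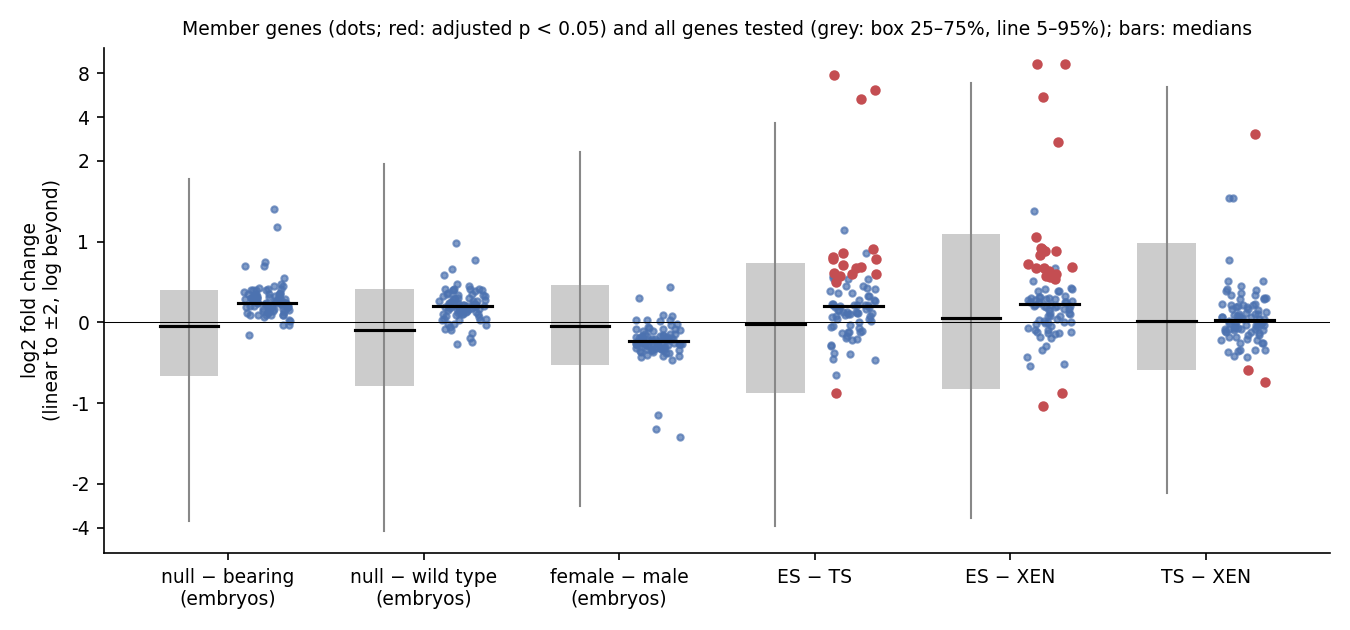
Log2 fold changes in the 6 comparisons (linear to ±2, log beyond), grey for all genes tested (box 25 to 75%, line 5 to 95%) and dots for the members, red where the adjusted p is under 0.05; black bars are medians. The member dots spread less than all genes, and the only dots beyond 2 are paralogs.

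Of the stalk and early-binding proteins, Rplp1 and Rplp2 were called and the others were not. Rplp0, the base of the stalk, was at 2006 and 2167 CPM in ES, 2790, 1981 and 3001 CPM in TS and 1485 and 2045 CPM in XEN lines, and passed no test (adjusted p = 0.242, 0.787 and 0.396). Rplp2 passed for ES against TS (0.59 ± 0.17, adjusted p = 0.0283) and against XEN (0.67 ± 0.19, adjusted p = 0.0239). Rplp1 passed against XEN (0.60 ± 0.21, adjusted p = 0.0474). The Rplp2 call against TS was lost without ES F1 (0.0994), ES M2 (0.204), TS F1 (0.0734) or TS F2 (0.0786), its call against XEN without ES F1 (0.0713), ES M2 (0.164), XEN M1 (0.107) or XEN M2 (0.0564), and the Rplp1 call without any 1 of ES F1 (0.175), ES M2 (0.175), TS F1 (0.0581), TS F2 (0.06) and XEN M1 (0.219), with no filter (0.0607) and with sex as a term (0.0506). Rpl5 and Rpl11, which with 5S RNA bind and inhibit Mdm2 when assembly fails, gave 0.16 ± 0.14 and 0.21 ± 0.19 for ES against TS, adjusted p = 0.392 and 0.404. Rpsa, the laminin receptor protein of the small subunit, gave 0.15 ± 0.18, adjusted p = 0.512. Rps3a gave 0.33 ± 0.22, adjusted p = 0.262.

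In the embryos no member passed the test for Nanog. Of 85 members tested, 0 were called between null embryos and the mean of wild type and heterozygotes, where edgeR called 2 of 12965 genes (0.0154%). DESeq2 called 0 members as well, against 0.64% of all genes. In edgeR's test 2 members had an unadjusted p under 0.05 (2.35%, against 4.97% of all genes). No member had all 4 null embryos above, or all 4 below, the 4 embryos with Nanog, while 1.11% of all genes had all nulls above and 4.21% all nulls below. Of the 85 members, 82 had a difference above 0, with a median of 0.24 against -0.05 for all genes and 0.16 for the 659 other genes of mean log2 CPM 8 or more. The median SE of a member's difference was also 0.24. Without null M2 the median was 0.07, without null F1 and M2 it was 0.13, and without null F2 and M2 it was 0.04. The 3 members below 0 were Rpl36 (-0.16 ± 0.21, adjusted p = 0.998), Rpl3 (-0.04 ± 0.20) and Rps4y2 (-0.03 ± 0.21).

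Null M2 had the highest CPM of the 8 embryos for 64 of 85 members, against 16.6% of all genes tested. Null F1 had the lowest for 36 of 85, against 22.8% of all genes. Rplp0, for example, was at 1843 and 2021 CPM in wild type, 1642 and 1794 CPM in heterozygotes and 1935, 1814, 2106 and 2396 CPM in null F1, F2, M1 and M2. Null M2 also had the highest share of counts in the 76 mitochondrial ribosomal protein genes, 1.04% against 0.659% to 0.814% in the other embryos. Its epiblast markers summed to 676 CPM, the lowest of the embryos (904 to 1242 CPM in the rest). Its trophectoderm markers summed to 2407 CPM and those of null F2 to 2234 CPM, against 5597 to 7994 CPM in the other 6. Null F2 and M2 are also the embryos with counts for all 8 fibroblast markers. The part of these differences in the members' shift was not tested.

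The members with the smallest p were Rps19bp1, Rpl39l and Rpl5. Rps19bp1 was at 9.1 and 36.2 CPM in wild type, 4.9 and 12.1 CPM in heterozygotes and 11.5, 30.1, 52.8 and 30.6 CPM in null F1, F2, M1 and M2, a difference of 1.40 ± 0.55 (adjusted p = 0.931). Rpl39l differed by 0.75 ± 0.33 (adjusted p = 0.931). Rpl5 was at 1196 and 1082 CPM in wild type, 1225 and 1171 CPM in heterozygotes and 1162, 1713, 1256 and 2090 CPM in null F1, F2, M1 and M2, a difference of 0.54 ± 0.27 (adjusted p = 0.931). In each case null F1 lay among the embryos with Nanog. Without null F1 and M2 the 3 differences were 1.83, 0.61 and 0.40, and without null F2 and M2 they were 1.11, 0.13 and 0.10.

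Null against wild type alone shares its null embryos and its fit with the comparison above and gave 0 calls among 85 members, with 0.0154% of all genes called. By DESeq2 the count was 0 too, against 0.702% of all genes. In edgeR's test 1 member had an unadjusted p under 0.05 (1.18%, against 3.86% of all genes). The median was 0.20, with 75 members above 0, and 0.02 without null M2 or 0.04 without the wild-type male. It was 0.09 without null F1 and M2 and -0.0025 without null F2 and M2. Rpl39l differed by 0.99 ± 0.42 and Rpl5 by 0.59 ± 0.34. These were 0.88 and 0.45 without null F1 and M2, and 0.38 and 0.15 without null F2 and M2. In the other direction were Rpl36 (-0.27 ± 0.25), Rps4y2 (-0.25 ± 0.26) and Rpl22l1 (-0.19 ± 0.37). With all 8 embryos the adjusted p of each of these was 1.00 in edgeR's test. The authors' deposited table of 78 Nanog-regulated genes holds 0 of the members.

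The 8 embryos differed little in most members: the median SD of the log2 level was 0.25, against 0.76 for all genes tested. No SD was taken for genes of like level alone. Between null and Nanog-bearing embryos, 97.6% of the members and 98.6% of the 659 other genes of mean log2 CPM 8 or more were within 2-fold. The median absolute difference was 0.24 in both. In 83 of 86 member rows the SD was under 0.5. The 3 others were Rps2 (1.54), Rpl13 (1.20) and Rps19bp1 (1.11), with coding GC contents of 58.2%, 58.2% and 59.0%. Rps2 was at 10.9 and 91.0 CPM in wild type, 6.83 and 11.4 CPM in heterozygotes and 4.63, 49.7, 56.2 and 50.6 CPM in null F1, F2, M1 and M2. Rpl13, a large-subunit protein, was at 1034 and 1506 CPM in wild type, 195 and 748 CPM in heterozygotes and 244, 1248, 1573 and 1455 CPM in the nulls. The heterozygous female and null F1 were low in all 3 rows, and the wild-type male and null M1 were high, so that the spread crossed the genotypes. In the lines Rpl13 ran from 881 to 1788 CPM and Rps2 from 73.6 to 249 CPM. Across 84 members, the rank correlation of coding GC with an embryo's deviation from the median embryo ran from -0.34 (null F2) to 0.49 (wild-type male), and across 11120 genes from -0.10 to 0.12. The points of each embryo share 1 amplified library, and the part of GC in these rows was not tested.

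**Figure D4:**
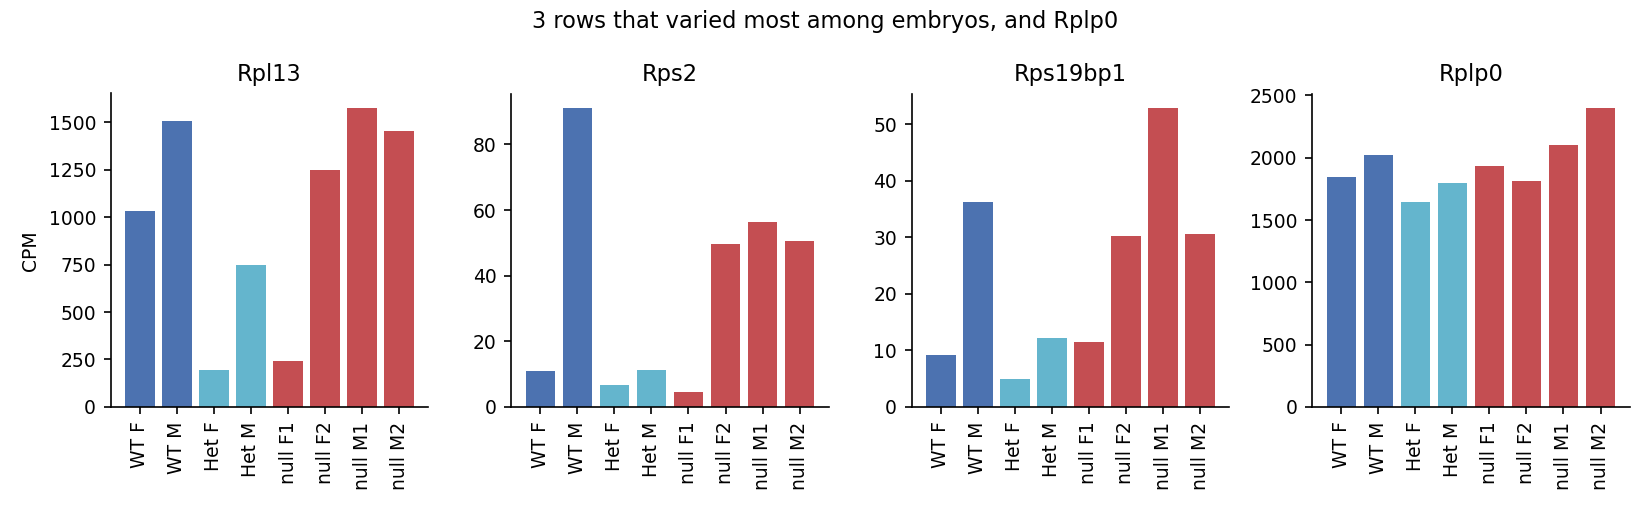
Levels (CPM) of Rpl13, Rps2, Rps19bp1 and, for contrast, Rplp0 as bars in each of the 8 embryos, coloured by genotype. The heterozygous female and null F1 are low for the first 3 genes, while Rplp0 stays between 1642 and 2396 CPM.

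Female and male embryos gave 0 calls among 85 members, where 1 of 12965 genes (0.00771%) was called. DESeq2 also called 0 members, against 0.47% of all genes. In edgeR's test 2 members had an unadjusted p under 0.05 (2.35%, against 2.95% of all genes). The members' median was -0.23 (female minus male), with 77 of 85 below 0, and all genes had a median of -0.05. Without null F1 and M2 it was 0.02, without null M2 it was -0.05, and without null F2 and M2 it was -0.08. The smallest p values below 0 were those of Rpl13 (-1.14 ± 0.44), Rps19bp1 (-1.32 ± 0.55) and Rps2 (-1.42 ± 0.73), and above 0 those of Rpl10 (0.44 ± 0.25), Rps4x (0.30 ± 0.24) and Rpl7l1 (0.09 ± 0.24). Every adjusted p was 0.999. In the same order they were -0.87, -1.31, -1.22, 0.63, 0.53 and 0.32 without null F1 and M2, and -1.68, -1.79, -2.47, 0.70, 0.55 and 0.13 without null F2 and M2.

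The 4 X-linked members, Rpl10, Rps4x, Rpl36a and Rpl39, were compared by sex because females carry 2 X chromosomes. Female ES cells are known to keep both active, and TS cells to silence the paternal X. In the embryos Rpl10, a core protein that joins the large subunit late, was at 1353, 1577, 1190 and 1010 CPM in the females (heterozygous, wild type, null F1 and null F2). It was at 747, 862, 1028 and 1104 CPM in the males (heterozygous, wild type, null M1 and null M2). The sexes overlapped, with the female above the male in the wild type and the heterozygotes. Rps4x, a core small-subunit protein, averaged 978 ± 104 (SD, n = 4) CPM in females and 784 ± 140 (SD, n = 4) CPM in males, also with overlap. Rpl36a averaged 418 ± 55.7 (SD, n = 4) and 387 ± 40.6 (SD, n = 4) CPM, and Rpl39 414 ± 71.0 (SD, n = 4) and 427 ± 84.4 (SD, n = 4) CPM. The autosomal members together were lower in females, at a female to male ratio of 0.868, with ratios of 1.37, 1.25, 1.08 and 0.97 for the 4 X-linked members. None of these passed a test.

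With 1 female and 1 male ES line, all 4 X-linked members were higher in the female line, with ratios of 1.42 for Rpl10, 1.36 for Rps4x, 1.49 for Rpl36a and 1.34 for Rpl39. The ratio for the autosomal members together was 0.893. Line and sex cannot be told apart here. In the TS lines, Rps4x was at 1547 and 1566 CPM in the females and 1197 CPM in the male, and Rpl36a at 311 and 283 against 220 CPM. Rpl10 was at 848 and 828 CPM in the females and 997 CPM in the male, and Rpl39 at 418 and 403 against 423 CPM. There is 1 male TS line, so no spread is known.

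Because all XEN lines are male, the ES calls of X-linked members were also read in males. Rps4x was at 2083 CPM in the male ES line, 1197 CPM in the male TS line and 1115 and 1245 CPM in the XEN lines. Rpl36a was at 425, 220 and 202 to 245 CPM in the same order, Rpl39 at 651, 423 and 386 to 532 CPM, and Rpl10 at 1122, 997 and 840 to 1039 CPM. The male ES line was the highest male line for each of the 4 genes. Rps4x differed between ES and TS by 0.72 ± 0.19 (adjusted p = 0.0202) and Rpl39 by 0.81 ± 0.21 (adjusted p = 0.0197). Without the female ES line these calls and that of Rpl36a were lost (0.215, 0.196 and 0.177), and that of Rpl39 also without TS F1 (0.0503) or TS F2 (0.0557). Against XEN, Rps4x differed by 0.72 ± 0.21 (adjusted p = 0.0262) and Rpl36a by 0.91 ± 0.25 (adjusted p = 0.0229). With sex as a term the adjusted p values were 0.0629 and 0.0515. Leaving out ES F1 (0.216 and 0.18) or XEN M1 (0.118 and 0.114) also ended both, as did leaving out XEN M2 for Rps4x (0.0636).

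**Figure D5:**
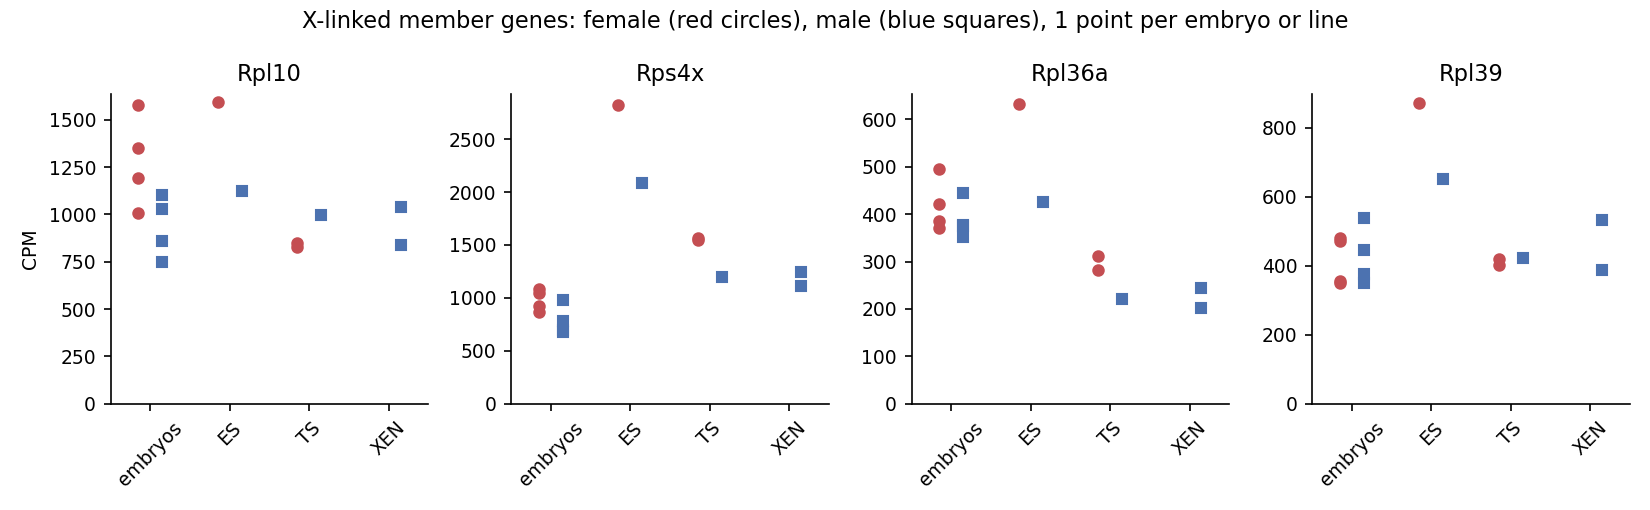
Levels (CPM) of the 4 X-linked members, 1 point per embryo or line, red circles for females and blue squares for males. The female ES line is above the male ES line in all 4 panels, whereas in TS lines the females are above the male for Rps4x and Rpl36a and below it for Rpl10 and Rpl39.

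The wider machinery was read from lists of genes that are not members. Their calls come from the main fit, and no alternative fit or left-out line is reported for them here. The counts below stand beside 20% of all genes called higher and 21.3% lower in ES than in TS lines, and 23.4% higher and 21.8% lower in ES than in XEN lines. Of 60 ribosome biogenesis genes tested, 20 were higher and 2 lower in ES than in TS lines, and 23 higher and 2 lower in ES than in XEN lines, with medians of 0.34 and 0.47. They included Dkc1, the rRNA pseudouridine synthase (3.19 ± 0.35 against TS, adjusted p = 0.000727), Nop58, a core protein of methylation-guiding snoRNPs (1.07 ± 0.15, adjusted p = 0.00179), and Rrp1b and Heatr1 (1.21 ± 0.18 and 1.15 ± 0.17 against XEN, adjusted p = 0.00183 and 0.00188). Of 14 RNA polymerase I genes, 6 were higher and 1 lower in ES than in TS, and 5 higher and 0 lower in ES than in XEN lines. Rrn3, the initiation factor of that polymerase, differed by 1.00 ± 0.16 against TS (adjusted p = 0.00311) and Ubtf, which binds the rRNA gene promoter, by 1.21 ± 0.24 (adjusted p = 0.00725).

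Of 76 mitochondrial ribosomal proteins, 7 were higher and 12 lower in ES than in TS, and 9 higher and 16 lower in ES than in XEN lines. The medians were -0.24 and -0.16. Mrpl10 differed by -1.10 ± 0.17 against TS (adjusted p = 0.00267) and Mrps5 by 1.49 ± 0.17 against XEN (adjusted p = 0.000626). Of 34 initiation factors, 2 were higher and 1 lower in ES than in TS, with a median of 0.07, and 3 higher and 3 lower in ES than in XEN lines. Eif4a2, a paralog of the cap-complex helicase, differed by 1.46 ± 0.21 against TS (adjusted p = 0.00195). Of 8 elongation factor genes 2 were lower and 0 higher in ES than in TS, among them Eif5a (-0.96 ± 0.22, adjusted p = 0.0123) and Eef2 (-0.49 ± 0.16, adjusted p = 0.0473). Against XEN 2 were lower and 1 higher, the higher being Eef2k, the kinase that inhibits eEF2 (2.31 ± 0.35, adjusted p = 0.002).

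Of 18 mTORC1 and TOP mRNA regulators in the table, 3 were higher and 2 lower in ES than in TS, and 5 higher and 1 lower in ES than in XEN lines. Deptor, an mTOR inhibitor, differed by 5.67 ± 0.77 between ES and XEN (adjusted p = 0.0012), and Rragd, a GTPase that recruits mTORC1 to the lysosome, by 4.32 ± 0.56 (adjusted p = 0.00103). Of 13 chaperones and associated factors, 1 was higher and 0 lower in ES than in TS, and 3 were higher and 3 lower in ES than in XEN lines. Tpt1, whose mRNA also has a TOP tract, was lower in ES than in XEN lines (-1.50 ± 0.28, adjusted p = 0.0046). Of the 3 ribosomal proteins with other symbols in the table, 0 were called for ES against TS or XEN. Fau, the precursor of Rps30, was lower in TS than in XEN lines (-0.71 ± 0.19, adjusted p = 0.0253). Between TS and XEN lines the biogenesis genes split 4 to 4, the RNA polymerase I genes 1 to 1, the initiation factors 3 to 2 and the mitochondrial proteins 10 to 7, higher against lower. In the embryos 0 genes of these lists were called for Nanog or sex.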

How the data were processed

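RNA-seq counts per gene symbol for 22 libraries were used as deposited by the authors: raw whole-number counts, not normalized. The build was mm9 and the tools included TopHat 1.3.1 and edgeR, per the submitters' processing notes. Not given in the sources used here: the counting program, the annotation, strand, and how reads with several matches were treated. In the authors' deposited list of Nanog-regulated genes only the symbols were read; its 22 value columns, of no stated unit, were not used.

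Differences were tested with edgeR 4.0.16 (quasi-likelihood, robust, TMM, filterByExpr, Benjamini-Hochberg over all genes tested, threshold 0.05): 8 embryos with genotype and sex as terms, and 7 lines by lineage with passages summed. Values after ± are SE of a log2 difference unless marked SD. DESeq2 1.42.0, other scalings, no filter, other terms, left-out samples and single libraries were alternatives. The fits were tested on simulated counts. For the embryos these were simulated with less spread between libraries than the real embryos had. That test therefore cannot show what the embryo fit would miss. SDs of log2 levels and GC deviations use log2(CPM + 1). Embryo totals of 14768624 counts or more set the counting precision, and intervals and floors cover counting error only. Embryos are separate embryos; the labels do not say whether lines came from separate embryos, so p-values between lines measure the spread between these lines.

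The members and lists were chosen with earlier results of these data known. Named are the paralog pairs, X-linked, stalk and early-binding members, up to 5 called members each way per line comparison by size, up to 3 each way per embryo comparison by p, the 3 highest and lowest per kb, and up to 2 called genes per list and line comparison. A gene this rule names in an embryo comparison is not reported here. Marker lists were of epiblast, trophectoderm, primitive endoderm, fibroblast and blood genes.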

Additional observations from a re-analysis of the deposited data

Results flagged for a closer look

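Rps2 in null F1 was at 4.63 CPM, far below the other 3 null embryos (49.7, 50.6 and 56.2 CPM), and its gap to the nearest was 0.874 of the range of the 4. This was 1 of 37 values screened in the null embryos, and chance alone marks about 1 in 20. It was also the lowest of the 8 embryos: the row was at 6.83 and 11.4 CPM in the heterozygotes and 10.9 CPM in the wild-type female.

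Rpl10 and Rpl39 had female to male ratios on opposite sides of 1 in ES and TS lines. For Rpl10 the ratio was 1.42 in ES and 0.841 in TS lines, and for Rpl39 1.34 and 0.969. These differences between lineages were not tested, and there was 1 female and 1 male ES line and 1 male TS line.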

How the results depend on the processing

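No alternative called any member in the embryos. The largest share of all genes called there was 0.702%, by DESeq2 for null against wild type. Called members for ES against TS were 17, and 15 to 24 with DESeq2, RLE factors, no filter or a sex term. Of all genes, 41.3% were called in the main fit and 31.4% to 46.1% in these alternatives. Fitting 14 libraries singly gave 31 for ES against TS, 31 for ES against XEN and 8 for TS against XEN. In the same order, 59.4%, 60.7% and 54.3% of all genes were called. With 58.3%, 59.7% and 52.9% of all genes called, 32, 32 and 8 members were called once the passage number was added as a replicate block. The labels do not say whether passages with the same number share a batch. Over 32 pairs of same-numbered libraries from different lineages, the correlation of deviations ran from -0.133 to 0.177 and was over 0.1 in 3. Differences between lines also enter these deviations, so a shared effect of passage number was not tested on its own. The embryos carry no numbers that pair genotypes. Library totals without TMM gave 26, 46 and 16 calls, where 40.7%, 46.6% and 36.7% of all genes were called. They moved the members' median to 0.56 for ES against XEN and 0.30 for TS against XEN, since all genes shifted with the XEN factors. For TS against XEN DESeq2 called 5 members (41.9% of all genes) and a sex term left 1 (28.7% of all genes). For ES against XEN no filter left 16 (35.5% of all genes) and a sex term 15 (38.8%), from 21 (45.1%).

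Leaving out 1 line gave 4 to 23 calls for ES against TS, 7 to 24 for ES against XEN and 1 to 5 for TS against XEN, and a median of 0.075 to 0.36 for ES against XEN. The share of all genes called moved too. Without 1 TS line it was 33.7% to 41.6%, 41.9% to 51.7% and 29% to 39.2% in the same order of comparisons. Leaving out an ES or XEN line leaves 1 line in a group. A smaller share of all genes than in the main fit was then called in each comparison. These ranges of calls are therefore not a result about the members alone. With the 50 most counted other genes taken out of the total, the members' share was 7.94% in wild-type, 7.31% in heterozygous and 8.27% in null embryos, and 8.10% in ES, 6.77% in TS and 5.89% in XEN lines. The order of the lineages was as before. Adding the 2 pseudogene rows moved no share by more than its SD.

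Some small embryo differences turned sign. Between null and Nanog-bearing embryos, Rpl3 was 0.0058 with RLE factors, 0.0058 with DESeq2 and -0.13 to 0.046 when leaving out 1 embryo. Rps4y2 was 0.0085, 0.0084 and -0.12 to 0.048 in the same order. Rpl22l1 against wild type was -0.52 to 0.15 when leaving out 1 embryo. Between the sexes, Rpl36a was -0.011 to 0.23, Rpl39 -0.18 to 0.10 and Rpl7l1 -0.0048 to 0.23 when leaving out 1 embryo, and Rpl39 was 0.21 without null F1 and M2. Without null F2 and M2 (chosen after seeing the data), Rpl39 was 0.049 between the sexes and Rps4y2 0.080 between null and Nanog-bearing embryos. The cause of these changes was not tested. Depth limits Rpl3l, Rpl39l and Rpl10l in TS and XEN lines, which rest on 1 to 30 summed counts. In the embryos the spread between libraries sets the limit.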
